A study of Mus musculus with 4 samples.

Results

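The Gimap family was followed in single-cell RNA sequencing of lymphoid cells from C57BL/6J mouse embryos. Its members were the 8 genes Gimap1, Gimap3, Gimap4, Gimap5, Gimap6, Gimap7, Gimap8 and Gimap9, chosen by symbol from 31914 features in all, and all 8 were listed in every library. The study asked how lymphoid tissue inducer (LTi) cells arise. These innate lymphocytes of the fetus set off the formation of lymph nodes. Cells were enriched with CD45 microbeads and sorted as live cells with the CD45+ F4/80- IL7Rα+ phenotype, with no treatment, genetic change or transgene given in the labels. There were 4 groups with 1 library each, namely fetal liver at E13.5, periphery at E13.5, fetal liver at E14.5 and periphery at E14.5. The Chromium 3′ kit of 10x Genomics was version 3 for fetal liver but version 2 for periphery, so that tissue and kit cannot be told apart. The list of genes counted and the Cell Ranger release also differed by tissue and cannot be told apart from it. The number of embryos behind each library, and whether they were pooled, is not given in the sources used here. Since each group is 1 library, differences were not tested for significance and have no replicate check. Where a pair of values is given without further label, E13.5 comes before E14.5.

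GIMAP proteins (GTPases of immunity-associated proteins) are guanine nucleotide-binding proteins of the AIG1 type, most of them anchored to inner membranes of the cell such as the endoplasmic reticulum, the Golgi, lysosomes or mitochondria. The genes lie side by side in 1 cluster and are known mainly from lymphocytes, where several members are needed for cell survival. Loss of Gimap5 causes severe loss of T cells in mice and rats, Gimap1 is needed to maintain mature T and B cells, and Gimap6 has been linked to autophagy. LTi cells, like other lymphocytes, arise from lymphoid progenitors.

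On GRCm38 (mm10) the 8 members spanned 123618 bases of chromosome 6, with 6 genes on the plus strand and 2 on the minus strand, in the GENCODE M21 annotation. Gimap8 (ENSMUSG00000064262) lay at chr6:48647234-48660875, Gimap9 (ENSMUSG00000051124) lay at chr6:48676129-48679114, and Gimap4 (ENSMUSG00000054435) lay at chr6:48684549-48692060, all on the plus strand. Gimap6 (ENSMUSG00000047867) lay at chr6:48701582-48708225 on the minus strand, and Gimap7 (ENSMUSG00000043931) lay at chr6:48718621-48724636 on the plus strand. Gimap1 (ENSMUSG00000090019) lay at chr6:48739054-48743795 and Gimap5 (ENSMUSG00000043505) lay at chr6:48746197-48754210, again on the plus strand, and Gimap3 (ENSMUSG00000039264) lay at chr6:48764464-48770851 on the minus strand. The antisense transcript gene Gimap1os, on the minus strand at chr6:48738346-48741444, overlapped Gimap1 by 2391 bases, of which 1107 were exonic in both genes.

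The RefSeq promoter table (GRCm38.p6) held windows for all 8 members, with 2 start sites for Gimap8 and so 9 windows. The 250 bases before the start were searched on both strands for the core letters of 4 motifs of lymphoid and blood transcription factors, none of which overlapped another in these windows. RUNX (TGTGGT) was found before Gimap1, Gimap4 and Gimap7, and in 14.045% of all 32851 windows of that length. ETS (GGAAGT) was found before Gimap5 and Gimap6, and in 19.7% of all windows. The E-box (CAGNTG) was found before Gimap5, Gimap7, Gimap9 and 1 start of Gimap8, and in 44.8% of all windows, and AGATAA, the core of GATA factor sites, before none of them and in 9.99% of all windows. Both strands were read, and such matches are letters only, with no binding measured. RefSeq and GENCODE starts differ for some members, and the windows of Gimap4, of Gimap9 and of the later Gimap8 start end inside the GENCODE gene. The windows of Gimap1 and Gimap6, which gave most of the family's UMIs, and of Gimap4, whose levels across classes of cells differed from theirs, are shown 5′ to 3′ with the RUNX and ETS letters in capitals.
Gimap1, chr6:48738797-48739046, plus strand: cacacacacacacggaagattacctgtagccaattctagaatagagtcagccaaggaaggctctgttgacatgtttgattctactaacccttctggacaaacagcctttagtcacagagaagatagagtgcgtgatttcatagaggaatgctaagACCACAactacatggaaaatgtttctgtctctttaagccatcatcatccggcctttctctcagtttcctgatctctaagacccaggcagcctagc
Gimap6, chr6:48708245-48708494, minus strand: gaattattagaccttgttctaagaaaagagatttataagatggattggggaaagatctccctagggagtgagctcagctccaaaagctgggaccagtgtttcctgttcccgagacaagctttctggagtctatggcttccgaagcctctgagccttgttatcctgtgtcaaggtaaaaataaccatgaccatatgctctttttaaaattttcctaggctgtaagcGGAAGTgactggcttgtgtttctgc
Gimap4, chr6:48684328-48684577, plus strand: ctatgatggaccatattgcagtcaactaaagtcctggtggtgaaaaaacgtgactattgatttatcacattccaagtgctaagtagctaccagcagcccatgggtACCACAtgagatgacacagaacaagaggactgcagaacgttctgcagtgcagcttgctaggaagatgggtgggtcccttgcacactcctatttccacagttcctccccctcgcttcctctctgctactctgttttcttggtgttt

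The deposited matrices hold counts of unique molecular identifiers (UMIs). After filters on genes per cell, mitochondrial share and doublets, 9776 and 10810 fetal liver cells were kept, with 184335159 and 179220854 UMIs. Periphery gave 4155 and 4340 cells with 50343995 and 41961056 UMIs. Median UMIs per kept cell ranged from 8448.5 in periphery at E14.5 to 18187.5 in fetal liver at E13.5, and the stages of a tissue shared 29 barcodes in fetal liver and 33 in periphery. The sorted receptor gene Il7r and the CD45 gene Ptprc were detected in every library, and the hepatocyte gene Alb was at or near 0 CPM. LTi-like cells, as named further on, made up 449 and 229 of the kept liver cells.

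Gimap transcripts were common in all 4 libraries. The 8 members together made up 516 (513 to 519.7) and 407 (404 to 409.7) CPM in fetal liver, and 443 (437 to 449) and 648 (639.8 to 655) CPM in periphery, where CPM counts UMIs of the gene per 1000000 UMIs of the library, with its exact Poisson 95% interval, which covers counting error only. After every cell had been thinned to 3000 UMIs, 71.4% (70.5 to 72.3) and 63.0% (62.1 to 63.9) of fetal liver cells and 69.0% (67.5 to 70.4) and 80.6% (79.3 to 81.8) of periphery cells held at least 1 Gimap UMI, with exact Clopper-Pearson intervals. The lowest family level was therefore that of fetal liver at E14.5 and the highest that of periphery at E14.5, and the E13.5 libraries lay between them. In the total of a library alone, fewer cells of a type and less RNA per cell cannot be told apart.

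Gimap6 and Gimap1 were the most abundant members in each library. A 3′ kit counts molecules and not fragments along the transcript, so CPM were compared between genes without a length term. Gimap6 stood at 177 (175 to 179) and 127 (126 to 129) CPM in fetal liver, and 121 (118 to 124) and 167 (163 to 171) CPM in periphery. It gave 34.2% and 31.3% of family UMIs in fetal liver and 27.3% and 25.8% in periphery. Gimap1 stood at 135 (133 to 137) and 122 (119.9 to 123) CPM in fetal liver, and 119 (116 to 122) and 177 (173 to 181) CPM in periphery. It was the first member in periphery at E14.5, while Gimap6 led in fetal liver at both stages, and their intervals overlapped in periphery at E13.5.

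Gimap9, a member whose role is little studied, stood at 78.7 (77.4 to 80.0) and 63.6 (62.4 to 64.8) CPM in fetal liver, and 61.1 (59.0 to 63.3) and 108 (105 to 111) CPM in periphery. Gimap5, the member whose loss depletes T cells, stood at 59.8 (58.6 to 60.9) and 43.3 (42.4 to 44.3) CPM in fetal liver, and 80.9 (78.4 to 83.4) and 113 (109.6 to 116) CPM in periphery. Both periphery libraries were above both liver libraries for Gimap5, which ranked below Gimap9 in fetal liver and above it in periphery. Gimap4, a member that rises during T cell maturation and has been linked to T cell death, stood at 42.4 (41.5 to 43.4) and 32.8 (32.0 to 33.7) CPM in fetal liver, and 47.9 (46.0 to 49.8) and 57.6 (55.3 to 59.9) CPM in periphery.

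Gimap7, which can act with other GIMAP proteins in GTP hydrolysis, stood at 16.2 (15.7 to 16.8) and 12.3 (11.8 to 12.9) CPM in fetal liver, and 9.85 (9.0041 to 10.8) and 15.2 (14.002 to 16.4) CPM in periphery. Gimap8, a larger protein with repeated GTPase domains, stood at 6.94 (6.56 to 7.33) and 4.25 (3.96 to 4.56) CPM in fetal liver, and 3.97 (3.44 to 4.56) and 10.486 (9.53 to 11.5) CPM in periphery. Gimap3, the closest relative of Gimap5, was the scarcest member in each library, with 148 and 271 UMIs in fetal liver, or 0.803 (0.679 to 0.943) and 1.51 (1.34 to 1.70) CPM. In periphery it was near the limit of detection, with 1 UMI at E13.5 and 4 UMIs at E14.5, or 0.0199 (0.000503 to 0.111) and 0.0953 (0.0260 to 0.244) CPM. Gimap3 was thus lower in periphery than in fetal liver at both stages, where kit and gene list differ as well. The plot of members by library shows this order of levels.

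**Figure D1:**
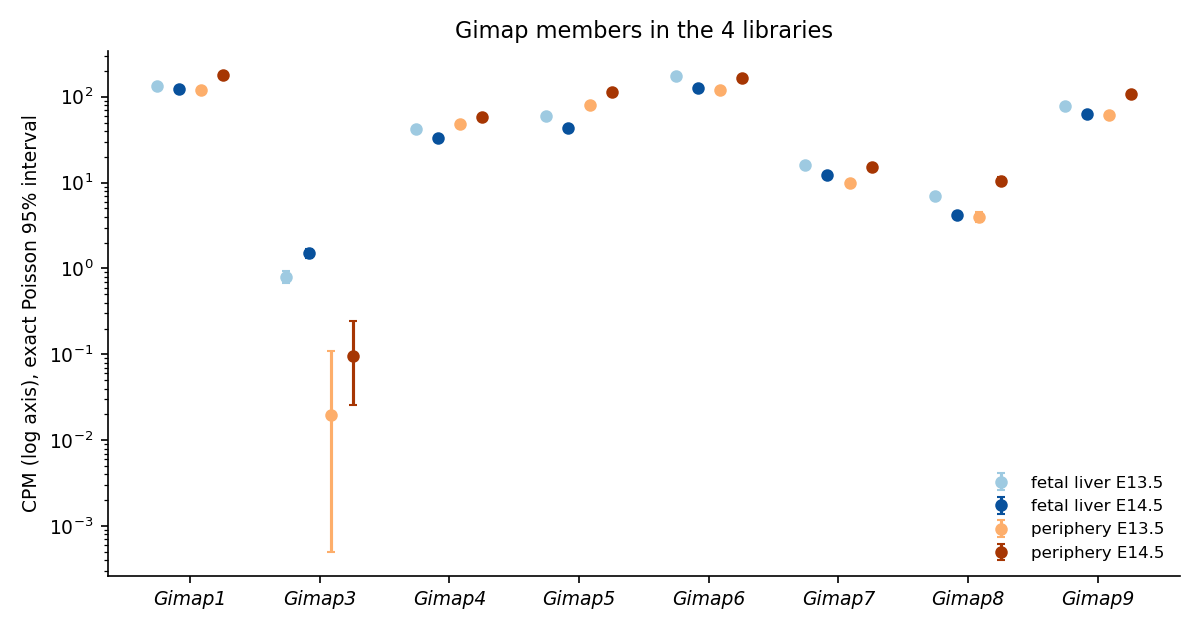
CPM of each Gimap member (log axis) in the 4 libraries, as points with exact Poisson 95% intervals, which are mostly smaller than the points. Gimap1 and Gimap6 lie above 100 CPM in all 4 libraries, and Gimap3 lies under 2 CPM in fetal liver and under 0.1 CPM in periphery.

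In fetal liver all members but Gimap3 were lower at E14.5 than at E13.5, by small amounts. Gimap3, scarce at both stages, went from 0.803 (0.679 to 0.943) to 1.51 (1.34 to 1.70) CPM. Folds are on the log2(CPM + 5) scale and were centred by subtracting the median over genes with at least 10 CPM in either library, which was -0.03 here. All 6 members at that level were below the median, from -0.12 for Gimap1 and -0.26 for Gimap9 to -0.39 for Gimap5 and -0.43 for Gimap6. Their median was -0.28, against 0 over all genes by construction, and the summed family stood at -0.31. None of the 6 passed a log2 fold of 1 in either direction, which 1.59% of measured genes did, 1.3% upward and 0.298% downward. A stricter cell filter (at least 1000 genes, at most 5% mitochondrial UMIs) kept 42.7% of E13.5 and 89.0% of E14.5 cells and brought the family fold to -0.16. The median mitochondrial share was 5.12% at E13.5 and 3.94% at E14.5, and its part in the result was not tested. The B lineage moved with this comparison: its 10 markers summed to 306 and 2939 CPM, and all 10 passed the fold upward.

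In periphery the members were higher at E14.5. All 7 measured members were above the median of all genes, which was 0.23. They ranged from 0.02 for Gimap4, 0.21 for Gimap7, 0.22 for Gimap6 and 0.23 for Gimap5 to 0.33 for Gimap1, 0.54 for Gimap9 and 0.56 for Gimap8. The median of the 7 was 0.23 and the summed family stood at 0.32. None passed a log2 fold of 1, which 3.7% of measured genes did, 1.43% upward and 2.27% downward. Gimap4 thus stood at the median gene's fold, and Gimap8 and Gimap9 furthest above it. The 11 LTi markers summed to 2287 and 4478 CPM in the same libraries, the 9 markers of lymphoid progenitors to 367 and 128 CPM, and Il7r stood at 212 and 396 CPM.

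Between tissues the picture differed by stage. The comparisons share libraries with those between stages, and each is subject to the differences in kit, gene list and Cell Ranger release. At E13.5, 4 of 6 measured members were above the median of all genes, with Gimap5 at 0.82, Gimap4 at 0.57, Gimap1 at 0.23 and Gimap9 at 0.07, while Gimap6 (-0.12) and Gimap7 (-0.11) were below it. None passed a log2 fold of 1, which 23% of measured genes did, 12.6% upward and 10.4% downward. These directions depended on the processing for all but Gimap4 and Gimap5. The median fold of all genes was -0.41, and without subtracting it, or with ribosomal protein, mitochondrial and haemoglobin genes left out of the total, Gimap1, Gimap9 and the family turned negative, while Gimap6 and Gimap7 turned positive under the stricter cell filter. Without subtraction the family went from 0.19 to -0.22. At E14.5 all 7 measured members were above the median, from 0.39 for Gimap7 and 0.55 for Gimap6 to 0.91 for Gimap8 and 1.45 for Gimap5, with the family at 0.83. Gimap5 alone passed a log2 fold of 1, which 23.6% of measured genes did, 12.3% upward and 11.4% downward. A count of 1 in 7 members is near that background.

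**Figure D2:**
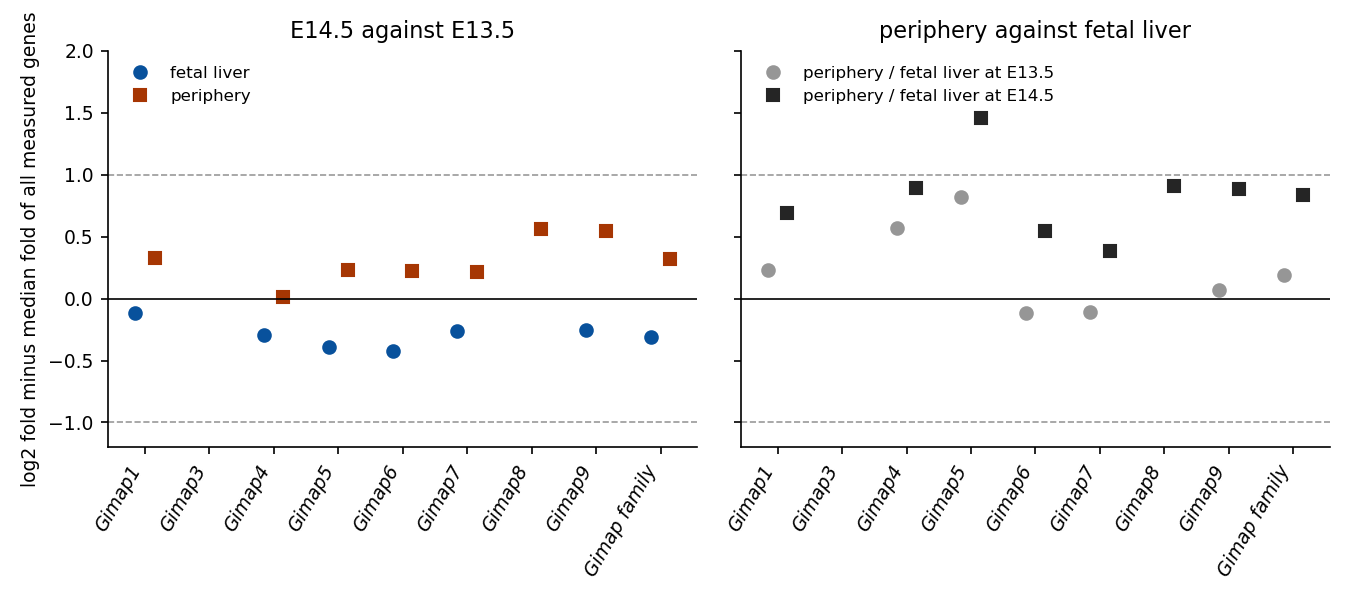
Centred log2 folds of the measured members and of the summed family between stages (left) and between tissues (right), where 0 is the median fold of all measured genes and dashed lines mark a log2 fold of 1. Fetal liver points lie below 0 and periphery points at or above 0 on the left, and Gimap5 at E14.5 on the right is the 1 point beyond a dashed line.

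Cells of each tissue were clustered over both stages with the Gimap genes left out, and clusters were named from marker sets, so that Gimap levels did not define the classes. Unnamed clusters of fetal liver, outside these classes, held 38.6% and 22.0% of cells and 34.3% and 19.1% of Gimap UMIs. The largest of them at E13.5, FL3, had 592 and 492 CPM of the family, and FL4 had 256 and 216 CPM. In the named classes of fetal liver the family was high in progenitors and the B lineage and low in mast cell and neutrophil classes. At E13.5 it stood at 771 (749 to 794) CPM in B lineage-like, 754 (745 to 762) in lymphoid progenitor-like, 664 (650.4 to 678) in stem and multipotent progenitor-like and 639 (625 to 653) CPM in plasmacytoid dendritic-like cells. B lineage-like and lymphoid progenitor-like cells had overlapping intervals. The plasmacytoid dendritic-like level depended on the clustering, and was 247 CPM at resolution 0.5, 246 with each library clustered alone and 396 CPM with Gimap genes kept. Innate lymphoid progenitor-like cells stood at 354 (347 to 362) and LTi-like cells at 346 (331 to 361) CPM, with overlapping intervals. The former class joined 2 unlike clusters, FL6 with 329 and 263 CPM and FL11 with 679 and 764 CPM, so that its value describes neither. Mast cell or basophil-like cells stood at 117 (100.4 to 135) and neutrophil lineage-like cells at 26.8 (22.0 to 32.4) CPM. At E14.5 the stem and multipotent progenitor-like cells were highest with 639.8 (600.0 to 681) CPM, next to lymphoid progenitor-like cells with 617 (609 to 626) CPM. LTi-like cells stood at 418 (392 to 445), B lineage-like cells at 403 (398 to 407), innate lymphoid progenitor-like cells at 403 (392 to 414) and plasmacytoid dendritic-like cells at 383 (373 to 393) CPM. The intervals of LTi-like cells overlapped with those of the other classes in this group, and plasmacytoid dendritic-like cells lay below B lineage-like cells. Mast cell or basophil-like cells, at 137 (129 to 146) CPM, and neutrophil lineage-like cells, at 50.2 (41.9 to 59.7) CPM, again lay below.

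Neutrophil lineage cells, the class of fetal liver with the lowest family level, served as a low reference for detection. At 3000 UMIs per cell, 5.63% (2.94 to 9.63) and 12.4% (7.26 to 19.4) of them held a Gimap UMI at E13.5 and E14.5, with full median depths of 18463 and 18325 UMIs. Gimap9 gave 39.3% and 33.1% of their family UMIs, against 15.2% and 15.6% in the fetal liver libraries. Whether these UMIs were free RNA was not tested. Lymphoid progenitor-like cells reached 86.2% (84.7 to 87.6) and 80.3% (78.4 to 82.2) at median depths of 17521 and 17863 UMIs. Gimap detection in lymphoid progenitor-like cells was therefore well above that of neutrophil lineage cells at like depths.

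In periphery the family was highest in group 1 innate lymphoid or NK-like cells, a single cluster (P8) led by Ccl5, Klrd1, Cd3g and Ifng, at 733 (711 to 756) CPM at E13.5 and 1165 (1123 to 1208) CPM at E14.5. At E13.5, B lineage-like cells stood at 499.9 (479 to 521), lymphoid progenitor-like at 435 (422 to 448), LTi-like at 429 (421 to 438) and plasmacytoid dendritic-like cells at 312 (287 to 339) CPM. Intervals of lymphoid progenitor-like and LTi-like cells overlapped. At E14.5, LTi-like cells came next with 706 (697 to 716) CPM and B lineage-like cells had 284 (271 to 299) CPM. Monocyte or macrophage-like cells stood at 186 (170.0 to 204) and 130.2 (102 to 165) CPM, the latter from cells with a median of 1132 UMIs, and mast cell or basophil-like cells at 56.7 (42.6 to 73.9) and 100.3 (81.2 to 122) CPM. Of clusters that stayed unnamed, P3, led by MHC class II genes, stood at 482 (434 to 533) and 939.8 (883 to 999.6) CPM, close to or above the LTi-like class. The group 1 name was given at 2 of the 6 clusterings. Under each of the 6, the cluster with more cells of P8 than any other was followed. Its family level ran from 532 to 733 CPM at E13.5 and from 739 to 1259 CPM at E14.5. The lowest values came with Gimap genes kept, where it held 192 of 469 cells of P8 at E13.5 and 112 of 228 at E14.5. They do not describe P8 alone.

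**Figure D3:**
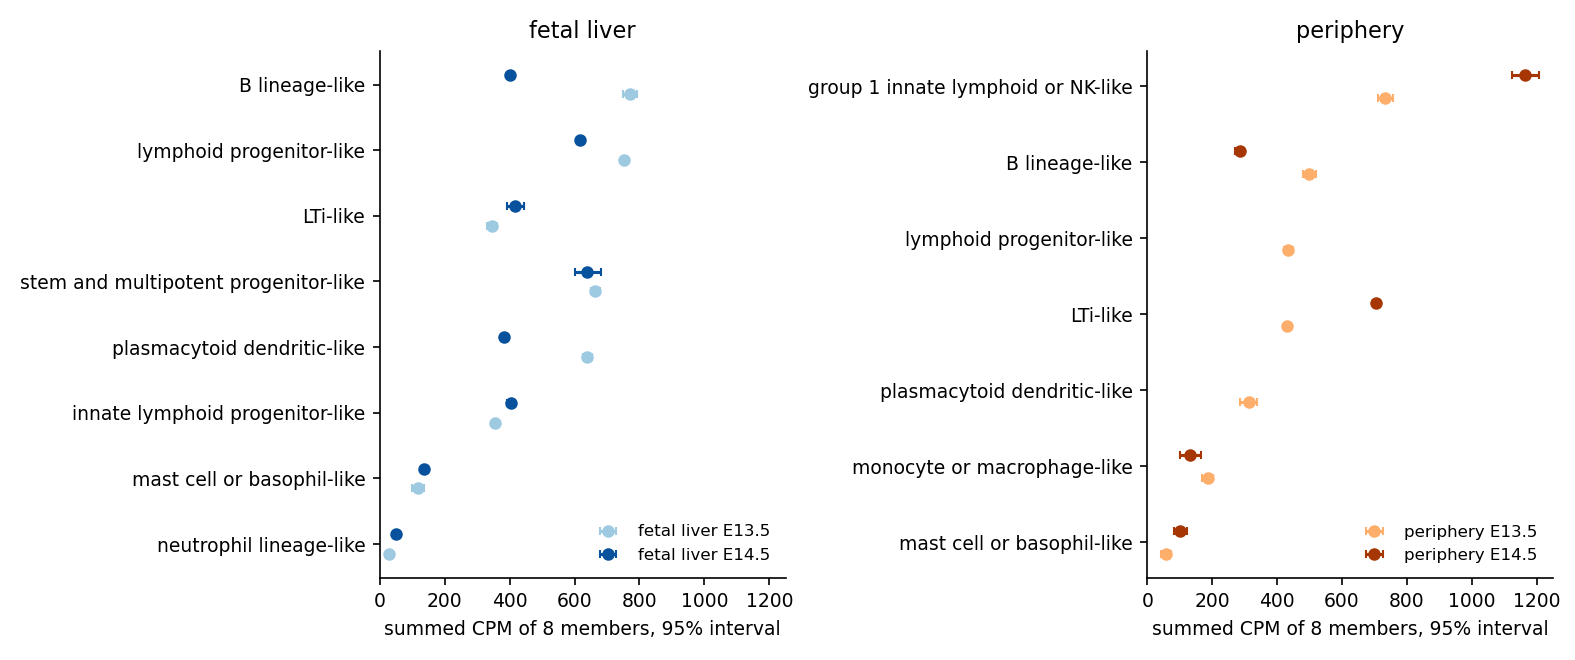
Summed CPM of the 8 members in each named class with at least 50 cells in a library, as points with exact Poisson 95% intervals, for fetal liver (left) and periphery (right). Mast cell, monocyte and neutrophil classes lie lowest, and the group 1-like class of periphery at E14.5 lies highest at 1165 CPM.

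Members did not share one order of classes. Gimap6 was highest in stem and multipotent progenitor-like cells of fetal liver, at 288 (279 to 297) and 256 (231 to 283) CPM, while LTi-like cells there held 64.3 (58.1 to 70.9) and 75.3 (64.6 to 87.3) CPM. Gimap5 differed less between these classes, with 67.2 (62.9 to 71.8) and 68.4 (55.8 to 82.9) CPM in stem and multipotent progenitor-like and 62.5 (56.5 to 69.0) and 81.7 (70.6 to 94.1) CPM in LTi-like cells. In LTi-like cells of periphery Gimap5 reached 102 (97.6 to 106) and 133 (129 to 137) CPM, next to 129 (124 to 133) and 203 (197 to 208) CPM of Gimap1. In fetal liver Gimap7 stood at 29.8 (28.1 to 31.5) and 25.6 (23.8 to 27.4) CPM in lymphoid progenitor-like cells and at 0.627 (0.0159 to 3.49) and 0.404 (0.0833 to 1.18) CPM in mast cell or basophil-like cells. Gimap9 UMIs were also counted in mast cell or basophil-like cells, with 37.6 (28.7 to 48.4) and 46.0 (41.3 to 51.2) CPM in fetal liver and 24.1 (15.3 to 36.2) and 30.3 (20.3 to 43.5) CPM in periphery. In neutrophil lineage-like cells of fetal liver, the low reference, Gimap9 stood at 10.514 (7.58 to 14.2) and 16.6 (12.0 to 22.4) CPM, and periphery has no such class. So the order of members changed with the class. Gimap8 stood at 11.7 (10.7 to 12.8) and 8.47 (7.48 to 9.56) CPM in lymphoid progenitor-like cells of fetal liver and at 4.79 (3.94 to 5.76) and 13.0 (11.8 to 14.4) CPM in LTi-like cells of periphery. Of the 148 and 271 Gimap3 UMIs of fetal liver, B lineage-like cells held 18 and 190, or 3.04 (1.80 to 4.81) and 2.95 (2.54 to 3.40) CPM. Lymphoid progenitor-like cells held 71 and 41 of them, and LTi-like cells 0 and 1.

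Gimap4 stood apart from the other members in periphery. There it stood at 196 (184 to 207) and 449.6 (424 to 477) CPM in group 1-like cells, against 17.4 (15.8 to 19.2) and 33.8 (31.7 to 35.9) CPM in LTi-like cells. The ratio of these levels, with P8 as group 1-like cells, was 11.2 at E13.5 and 13.3 at E14.5. It depended on the clustering. At E13.5 it ran from 5.42 to 11.2, and at E14.5 from 5.51 to 19.7, over 6 clusterings, a check chosen after the data had been seen. Under each, the cluster with more cells of P8 than any other was used. At E14.5 that cluster held 112 P8 cells among 254 where the ratio was 5.51, and 164 among 175 where it was 19.7. With another seed it held 128 P8 cells among 219 at E14.5, with a ratio of 19.3. With that seed it held 335 of the 469 P8 cells among 356 at E13.5. Gimap4 stood at 103.5 CPM in it and the ratio was 6.15. The 196 CPM of P8 at E13.5 is thus a mean over cells of unlike levels. At 3000 UMIs per cell, 31.3% (27.1 to 35.8) and 51.8% (45.0 to 58.5) of group 1-like cells held a Gimap4 UMI, against 4.39% (3.56 to 5.34) and 8.18% (7.26 to 9.19) of LTi-like cells and 0 of mast cell or basophil-like cells, of which 54 and 62 were deep enough, so that exact intervals allow shares of up to 6.60% and 5.78%. Median depths were 11486 and 11063 UMIs in group 1-like, 10023 and 8138 in LTi-like and 16896 and 9644 UMIs in mast cell or basophil-like cells. Gimap1, by contrast, stood at 117 (109 to 127) and 125 (111 to 139) CPM in group 1-like cells, below the LTi-like level of 129 and 203 CPM at E14.5 and not distinguished from it at E13.5.

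A like split of Gimap4 between some clusters was present in fetal liver, which was clustered separately. Cluster FL11, led by Cxcl10, Ccl5, Arg1 and Cd3g and named innate lymphoid progenitor-like, held 159.6 and 280.1 CPM of Gimap4. Cluster FL6, of the same name but led by Tcf7, Tox and Zbtb16, held 21.1 and 7.45 CPM, and the LTi-like cluster FL10 11.2 and 15.3 CPM. In the B lineage cluster FL8, led by Rag1 and Pax5, Gimap4 stood at 142 and 96.2 CPM, and in FL12, led by Igll1 and Vpreb1, at 73.9 and 21.8 CPM. Stem and multipotent progenitor-like cells of FL2 had 14.8 and 9.29 CPM although their family level was 664 and 639.8 CPM. Gimap4 made up 38.6% of family UMIs in P8 at E14.5 and 1.45% in FL2 at E14.5.

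**Figure D4:**
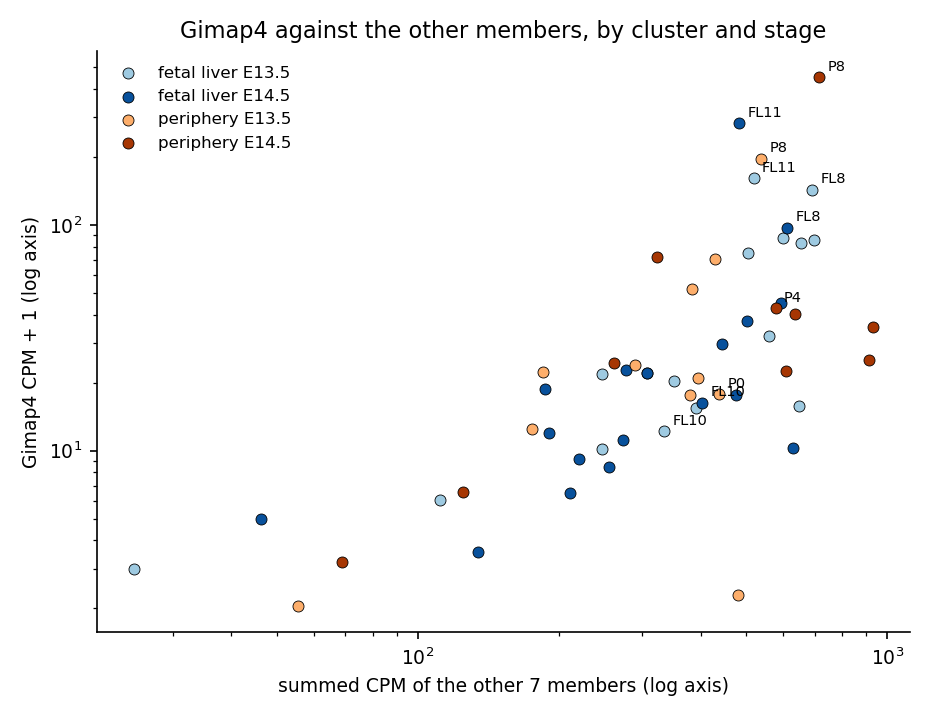
Gimap4 CPM plus 1 against the summed CPM of the other 7 members (both log axes), with 1 point per cluster of at least 50 cells and library. P8 and FL11 lie at the top, and LTi-like clusters such as FL10, P0 and P4 lie below them at comparable levels of the other members.

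Within clusters of fetal liver that held at least 50 cells at both stages, the family was lower at E14.5 in 11 of 16, higher in 3 and had overlapping intervals in 2. The 3 higher ones were the LTi-like FL10, at 346 and 418 CPM, FL11, at 679 and 764 CPM, and the neutrophil lineage cluster FL13. By value alone, Gimap6 was lower in 14 of 16 clusters, Gimap8 in 13, Gimap1, Gimap4 and Gimap7 in 12 each and Gimap5 in 11. Gimap9 was lower in 9 and higher in 7, and the scarce Gimap3 was lower in 7 and higher in 8. The 16 clusters come from the same 2 libraries and are not replicates. In periphery 6 clusters could be compared, of which P3, P8 and P12 were higher at E14.5, P9 (B lineage-like) and P11 (monocyte or macrophage-like) lower, and P14 not distinguished.

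**Figure D5:**
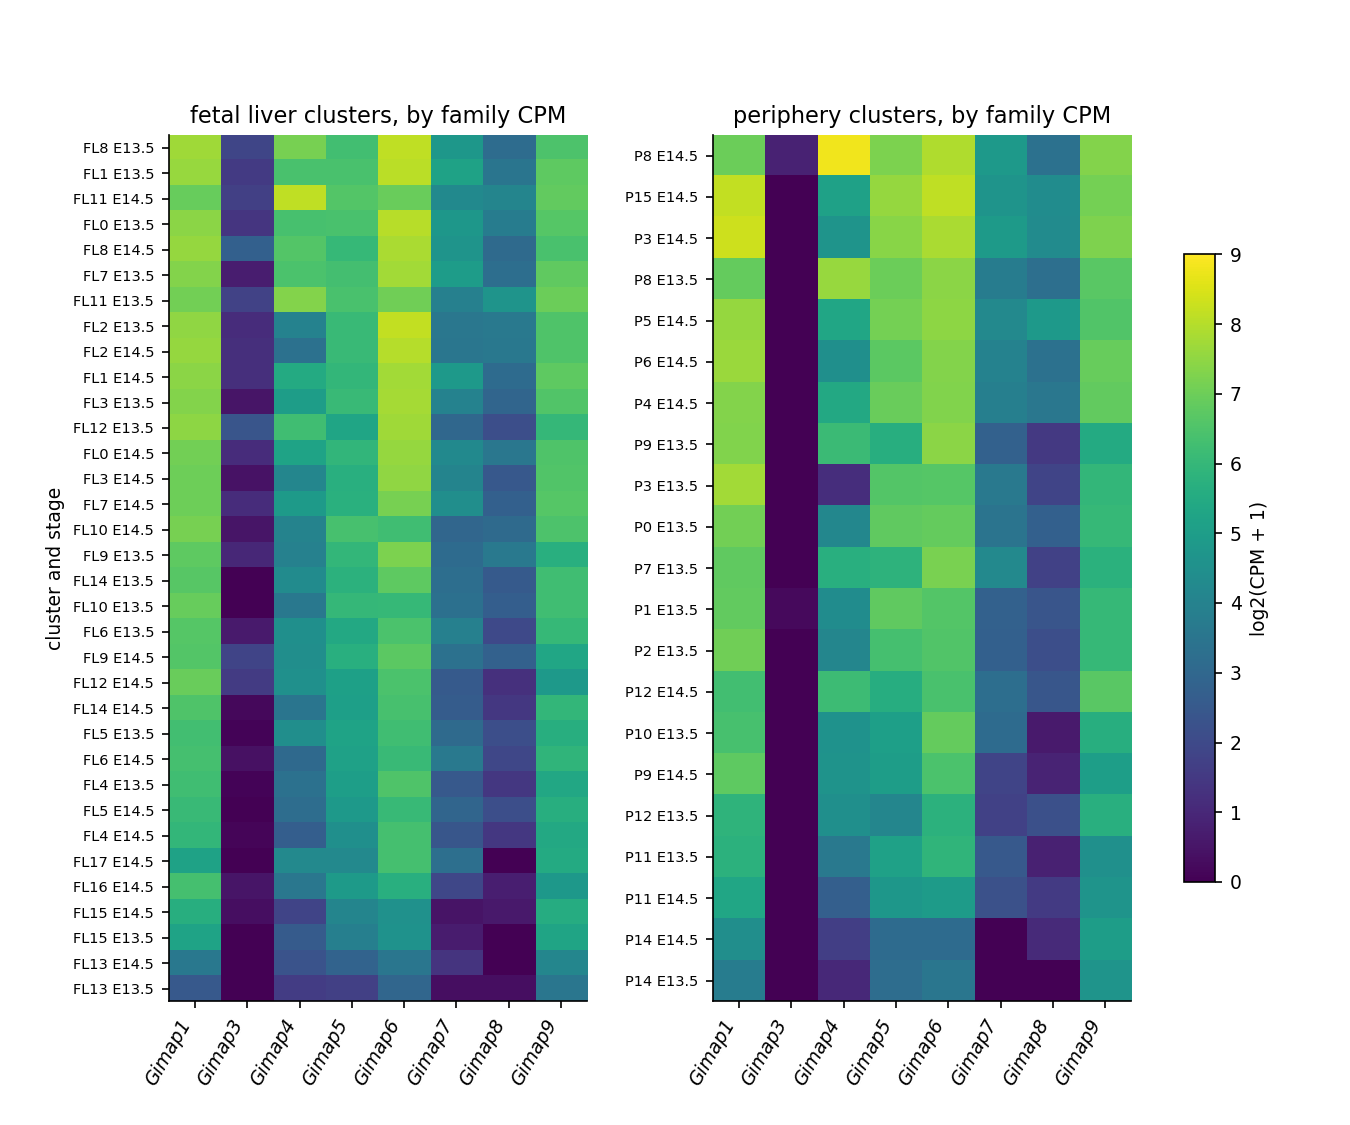
Level of each member, log2(CPM + 1), in clusters of at least 50 cells at each stage, sorted by the summed family CPM from top to bottom, for fetal liver (left) and periphery (right). Gimap1, Gimap5, Gimap6 and Gimap9 fade together towards the myeloid clusters at the bottom, and Gimap4 is brightest in P8 and FL11.

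The B lineage showed the lower levels at E14.5 in both tissues. In fetal liver all 6 measured members were below the median of all genes, with a family fold of -0.89. Gimap4 stood at 126 (117 to 135) and 40.7 (39.2 to 42.3) CPM, with a fold of -1.48, and Gimap6 at 262 (249 to 276) and 124 (121 to 127) CPM, with a fold of -1.02. These 2 passed a log2 fold of 1, which 1.73% of measured genes did. The class shifted from FL8 (344 of 457 cells at E13.5) to FL12 (2757 of 3867 at E14.5). The family was lower at E14.5 within each, at 833 (806 to 860.1) and 708 (695 to 721) CPM in FL8 and 578 (539 to 618) and 299 (294 to 304) CPM in FL12. In periphery, where 1 cluster (P9) made up the class, all 5 measured members were below the median with a family fold of -0.95, and 2 passed the fold that 3.24% of measured genes passed. They were again Gimap4, at 69.9 (62.2 to 78.2) and 23.4 (19.7 to 27.7) CPM with a fold of -1.54, and Gimap6, at 171 (159 to 184) and 85.5 (78.2 to 93.4) CPM with a fold of -1.11.

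Lymphoid progenitor-like cells of fetal liver had 6 of 7 measured members below the median and a family fold of -0.27, and none passed the fold that 0.811% of genes passed. The family fold was -0.15 with each library clustered alone. Gimap4 was furthest from the median, at 83.0 (80.2 to 85.8) and 42.4 (40.2 to 44.8) CPM (-0.88). Stem and multipotent progenitor-like cells, with 65 cells at E14.5, had 3 members above and 4 below the median and a family fold of -0.06, and 0 of 7 passed the fold that 0.271% of genes passed. Plasmacytoid dendritic-like cells had a family fold of -0.74 with Gimap4 at 76.6 (71.9 to 81.7) and 19.9 (17.6 to 22.3) CPM (-1.73), the 1 of 6 measured members past the fold, which 0.94% of genes passed. The class shifted from FL7 (688 of 814 cells at E13.5) to FL14 (549 of 1016 at E14.5), and the family stood at 686 and 474 CPM within FL7 and at 369.7 and 283 CPM within FL14. That class depended on the clustering, and its family fold ran from -0.75 to 0.34 over the alternatives.

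LTi-like cells of periphery held more Gimap transcripts at E14.5. Gimap1 stood at 129 (124 to 133) and 203 (197 to 208) CPM, a centred fold of 0.39. Gimap6 stood at 105 (101 to 109) and 186 (181 to 191) CPM (0.56) and Gimap9 at 64.3 (61.1 to 67.6) and 121 (117 to 125) CPM (0.62). Gimap8, at 4.79 (3.94 to 5.76) and 13.0 (11.8 to 14.4) CPM, had the highest fold (0.64) and Gimap5, at 102 (97.6 to 106) and 133 (129 to 137) CPM, the lowest (0.13). All 7 measured members were above the median of all genes and none passed a log2 fold of 1, which 2.68% of measured genes did. Different clusters made up the class at the 2 stages, with P0 (455 CPM of the family), P1 (415) and P2 (396) at E13.5, and P4 (620.2), P6 (631), P5 (676) and P15 (966) at E14.5. Each E14.5 cluster was above each E13.5 cluster. P15, led by Ccdc184, Madcam1 and Ccr6, was the highest of them, and without it the family fold was 0.30 in place of 0.47, a check added after the data had been seen. LTi-like cells of fetal liver had a family fold of 0.24, with 5 of 5 measured members above the median and 0 past the fold that 2.34% of genes passed, and with each library clustered alone the family fold was 0.10.

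Group 1-like cells of periphery had a family fold of 0.42, with 4 of 6 measured members above the median and 0 past the fold that 2.89% of genes passed. Without centring the family stood at 0.66 and Gimap4, at 1.18, passed the fold, and at resolution 0.5 the centred family fold was 0.32. Centred, Gimap4 was highest at 0.93, and Gimap1 was at -0.16, although its CPM were not lower at E14.5. In fetal liver, innate lymphoid progenitor-like cells had 3 members above and 3 below the median. Gimap4 was past the fold there, at 31.1 (28.9 to 33.5) and 83.6 (78.7 to 88.7) CPM (1.29), which 1.68% of genes were. FL11 made up 130 of 1128 cells of that class at E13.5 and 304 of 757 at E14.5, and Gimap4 was lower at E14.5 in its other cluster, FL6.

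Myeloid classes, where the family is low, gave few measured members. In fetal liver, 3 of 4 measured members were above the median at E14.5 in mast cell or basophil-like cells (0 past the fold, 0.873% of genes) and 3 of 3 in neutrophil lineage-like cells (0 past the fold, 0.672%). In periphery, 4 of 4 were above it in mast cell or basophil-like cells, where Gimap1 passed the fold at 1.0026 (5.96% of genes), and 5 of 5 were below it in monocyte or macrophage-like cells, where Gimap6 passed at -1.03 (8.95%). These values rest on few UMIs. In periphery the mast cell or basophil-like class of E14.5 also held the 42 cells of P16, none of them from E13.5, and within P14 Gimap1 stood at 12.6 and 21.1 CPM.

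The difference between stages was then divided into the part that follows from the mix of classes, with the mean level of each class held, and the part from levels within classes, with the mean share of each held. A shift between clusters of 1 class counts as within-class here. In fetal liver this gave a mix term of 32.9 CPM and a within-class term of -143 CPM. The latter held -72.2 CPM for B lineage-like cells, which shifted from FL8 to FL12. It held -30.8 CPM for the pooled unnamed clusters, with smaller terms of both signs elsewhere. B lineage-like cells, which rose from 4.67% to 35.8% of cells, held 4.79% and 35.6% of all Gimap UMIs. In periphery the mix term was 10.9 CPM and the within-class term 194 CPM. LTi-like cells held 44.6% of Gimap UMIs there at E13.5 and 75.3% at E14.5. The mix terms are sums of larger terms of both signs. In fetal liver they held 192 CPM for B lineage-like cells against -68.8 for unnamed clusters, -41.7 for stem and multipotent progenitor-like and -32.4 CPM for lymphoid progenitor-like cells. In periphery they held 130.4 CPM for LTi-like cells against -82.3 for lymphoid progenitor-like and -50.3 CPM for group 1-like cells.

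Between tissues, LTi-like cells and progenitors went in opposite directions. At E13.5, all 5 measured members were above the median of all genes in LTi-like cells of periphery, with a family fold of 0.70, although the CPM of Gimap9 was lower there, 64.3 against 73.8. Gimap5 (1.05) and Gimap6 (1.05) passed the fold upward. Of 7944 measured genes, 789 passed it upward and 950 downward, 21.9% in all. Without centring Gimap5 and Gimap6 stood at 0.66 and the family at 0.31, so that neither call remained. At E14.5 all 7 were above the median, with the family at 0.90, and Gimap6 (1.40), Gimap4 (1.09) and Gimap7 (1.04) passed the fold upward. Of 8082 measured genes, 413 passed it upward and 861 downward, 15.8% in all. Without centring Gimap4, at 0.93, and Gimap7, at 0.89, did not. Lymphoid progenitor-like cells of periphery at E13.5 had all 7 measured members below the median, a family fold of -0.36 and 0 members past the fold (18.5% of genes). B lineage-like cells had 5 of 6 below at E13.5 (-0.20, 0 past the fold, 18.9% of genes) and 5 of 5 at E14.5 (-0.30, 0 past the fold, 12.4% of genes). Plasmacytoid dendritic-like cells of periphery at E13.5 had 6 of 6 below, and Gimap4 passed the fold at -1.15 (23.8% of genes). The liver level on which this rests fell below the 312 CPM of periphery in 2 of the other clusterings. Mast cell or basophil-like cells had 4 of 4 below at E13.5 and 3 of 4 at E14.5, with 0 past the fold at either stage (20.9% and 19.5% of genes). The classes of a tissue share 1 kit, 1 gene list and 1 library per stage, and the difference between classes was not tested.

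Single cells often held more than 1 member. In cells thinned to 3000 UMIs, 14.2% and 9.48% of fetal liver and 10.2% and 23.2% of periphery cells held UMIs of 3 or more members. In LTi-like cells of periphery this share was 8.59% at E13.5 and 24.4% at E14.5, and in group 1-like cells 22.7% and 41.4%. In lymphoid progenitor-like cells of fetal liver it was 24.3% and 16.9%. None of 213 and 129 neutrophil lineage-like cells held 3 members, and 94.4% and 87.6% of them held none.

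Across clusters all 28 pairs of members had positive correlations in each tissue, though some in periphery were near 0. Over 18 clusters of fetal liver all 28 pairs had a positive Pearson correlation of log2(CPM + 5), with a median of 0.76 and the highest value for Gimap1 with Gimap5 (0.94). Pairs with Gimap4 there ran from 0.63 (Gimap1) to 0.84 (Gimap7), so that by this measure Gimap4 did not stand apart in fetal liver. In periphery pairs with Gimap4 ran from 0.32 (Gimap8) to 0.65 (Gimap6). Over 15 clusters of periphery the median was 0.71, with Gimap1 and Gimap6 at 0.93, Gimap1 and Gimap4 at 0.40, Gimap4 and Gimap8 at 0.32 and the lowest value for Gimap1 with the scarcely detected Gimap3 (0.007). The clusters of a tissue share libraries, kit and depth, so these values are a description only. Of 6381 other genes, those most like the summed family in both tissues, by the lower of the 2 correlations, were Trbc2 (0.84), which encodes a constant region of the T cell receptor, Lax1 (0.83), an adaptor of lymphocyte signalling, Ipo11 (0.83), a nuclear import receptor, Msi2 (0.82), an RNA-binding protein of progenitors, and Zfp386 (0.81).

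Other gene groups linked to lymphocyte survival and to Gimap control were counted in the same way. Of all measured genes, 1.3% passed the fold upward and 0.298% downward in fetal liver, and 1.43% and 2.27% in periphery. Of the BCL2 family, 9 genes were measured between stages in fetal liver with 0 past the fold and a median of -0.0046. In periphery 11 were measured, 0 passed upward and 3 downward, with a median of -0.12. The pro-survival gene Bcl2 there stood at 134 and 317 CPM (log2 fold 0.98), Bcl2a1d at 20.4 and 3.0028 CPM (log2 fold -1.89), Bcl2a1b at 51.5 and 23.0 CPM (log2 fold -1.24) and the pro-death gene Bcl2l11 at 30.7 and 15.6 CPM (log2 fold -1.02). Of lymphocyte quiescence and trafficking factors, 1 of 11 measured in periphery passed upward, as 1.43% of all genes did, Btg1 at 43.0 and 117 CPM (log2 fold 1.12), with a median of -0.01.

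Of factors reported to control Gimap genes in T cell leukaemia, 9 were measured in fetal liver, 1 passed upward and 1 downward (all genes 1.3% and 0.298%), with a median of 0.27. These were Ets1, at 25.8 and 73.0 CPM (log2 fold 1.37), and Lmo2, at 173 and 78.3 CPM (log2 fold -1.07). In periphery 8 were measured and 1 passed upward, the Notch target Hes1 at 7.61 and 34.8 CPM (log2 fold 1.43), with a median of 0.38. Other GTPases of immune cells had 9 measured genes in fetal liver and 10 in periphery, 0 past the fold and medians of -0.10 and 0.02.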

How the data were processed

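UMI counts per gene and cell barcode were deposited by the authors as 4 filtered 10x matrices, made with Cell Ranger 3.0.0 (fetal liver) or 3.0.1 (periphery), per the file headers, on mm10, per the submitters' processing notes. The gene model release is not given in the sources used here, and the feature lists of the tissues differ (31053 and 28427 genes, 27566 in all 4). The 4 libraries hold 4531 to 12090 barcodes.

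Cells were kept from 500 detected genes upward if mitochondrial UMIs did not exceed 10%, and doublets marked by Scrublet (in scanpy 1.11.5; 3.38 to 8.02% of cells) were left out. The doublet cut was automatic in fetal liver at E14.5 and set by the expected rate in the other libraries. Cells of each tissue were clustered over both stages by the Leiden method (resolution 1) without the Gimap genes and named from fixed marker lists; unnamed clusters stayed so. With 1 library per group no test was made. Within classes, shares of genes past the fold count both directions. UMIs were summed per library or class of at least 50 cells and given as CPM with exact Poisson 95% intervals, log2 folds after adding 5 CPM were centred on the median of genes with 10 CPM or more in either library, and shares come from cells thinned to 3000 UMIs, with Clopper-Pearson intervals. A level of 0 CPM was bounded by 3 counts. Calculations used Python 3.11.15, numpy 2.4.6, scipy 1.17.1 and pandas 2.3.3, and the fold and interval steps were tested on simulated data. The alternatives were other pseudocounts, no centring, TMM factors (edgeR 4.0.16), equal weight of cells, a stricter cell filter, doublets kept, other genes left out of the total, other minimum levels, other thinning depths and 5 other clusterings.

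The members and gene lists were chosen with earlier results of these data known. Named genes were all 8 members, any other feature whose symbol starts with Gimap, the 5 genes most like the family across clusters, and up to 4 members of each list. Marker genes of clusters are given only to say what a cluster is. The fetal liver count of the list of quiescence and trafficking factors is not reported here.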

Additional observations from a re-analysis of the deposited data

Results flagged for a closer look

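The family and 5 of its members had log2 folds of opposite sign between stages in the tissues, E14.5 against E13.5, centred on the median of all genes, with counting intervals on opposite sides of that median. The difference between tissues was not tested, since each group is 1 library. Gimap1 stood at -0.1156 in fetal liver and 0.3305 in periphery, Gimap5 at -0.3922 and 0.2286, and Gimap6 at -0.4265 and 0.2236. Gimap7 stood at -0.2645 and 0.214, Gimap9 at -0.2572 and 0.5437, and the summed family at -0.3109 and 0.3156. Under the stricter cell filter Gimap1 and Gimap7 stood at -0.0065 and -0.09 in fetal liver, so that the sign for Gimap1 is not settled there.

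Gimap1os, the antisense gene that overlaps Gimap1, was listed for the periphery libraries only and lay outside the comparisons of the 8 members. It gave 492 UMIs at E13.5 and 804 at E14.5, or 9.77276 and 19.1606 CPM, above the 0.0596 and 0.0715 CPM that a count of 0 would allow. It was not analysed in fetal liver. Whether strand was used in counting is not given in the sources used here. How far reads of Gimap1 enter the count of Gimap1os where their exons overlap was not tested.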

How the results depend on the processing

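No paired analysis was possible because each group has 1 library. Headline values were the family folds between libraries, numbers of genes past the fold and shares of cells with a Gimap UMI. The family folds in B lineage-like cells of fetal liver and LTi-like cells of periphery were added to them. Of the alternatives to headline values, 23 were labelled as the same and 44 as moved. Of those to all other values, such as folds of single members, 163 were the same and 180 moved. Folds and shares of cells were judged by counting intervals, and numbers of genes by a fixed ratio. The headline tally includes shares at other thinning depths, which move by construction. The family fold between stages in fetal liver was -0.34 without centring, -0.34 with equal weight of cells, -0.16 under the stricter filter and -0.36 with ribosomal protein, mitochondrial and haemoglobin genes left out. In periphery it was 0.29 and 0.34 with 1 and 10 CPM added, 0.54 without centring, 0.39 with equal weight and 0.45 with those genes left out. Between tissues at E13.5 it was 0.25 and 0.14 with 1 and 10 CPM added, -0.22 without centring, 0.035 with TMM factors, 0.23 with equal weight, 0.37 under the stricter filter and -0.065 with those genes left out, so that its sign was not settled. At E14.5 the same 7 settings gave 0.86, 0.80, 0.66, 0.72, 0.96, 0.86 and 0.74. Genes past the fold numbered 62 and 147 between stages and 1003 and 1011 between tissues at a minimum of 50 CPM, where fewer genes are counted, against 123, 267, 1840 and 1917. The fold in B lineage-like cells of fetal liver was -1.22 with each library clustered alone. In LTi-like cells of periphery it was 0.71 without centring, 0.56 and 0.55 at resolutions 0.5 and 2, and 0.30 without P15. Cells with a Gimap UMI, at a shallower and a deeper thinning and without thinning, made up 59.5, 83.0 and 94.5% (E13.5) or 51.0, 77.6 and 91.5% (E14.5) of liver cells, and 55.5, 82.6 and 92.9% or 70.1, 90.4 and 94.8% of periphery cells. These shares rise with depth by construction. The cause of the other shifts was not tested. LTi-like cells of fetal liver were not named at resolution 0.5, and group 1-like cells not at resolution 2, with another seed, with Gimap genes kept or with each library alone, so these settings gave no value for them. Depth limits Gimap3 in periphery and in small classes, and Gimap8 in small classes.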
